A study of Mus musculus with 47 samples.

Results

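The response of the liver to a high-fat, high-sugar diet was examined in C57BL/6J females. Libraries whose titles carry the code C57BL/6J-F were taken, which gave 8 of the 47 libraries of the series, and the sex given in the labels was female for each. Of these, 4 came from mice on a diet with 44% fat and 4 from mice on the control diet with 10% fat, both with added fiber. C57BL/6J is the common inbred laboratory strain, and all mice were wild type in genotype and had no other treatment. The diets began at 6 weeks of age and liver was collected at 15 weeks of age. Another pair of strains, CAST/EiJ and NZO/HlLtJ, and males of each strain were fed the same diets, and they enter here as a source of spread between libraries and for the tests of differences. The series asks how genotype and diet act together in mouse models of type 2 diabetes. Whether libraries come from separate animals is not stated in the labels, and the p-values rest on the spread between libraries, which may be technical.

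When dietary fat and sugar exceed what the body burns, the liver stores triglyceride in droplets, makes fatty acids from carbohydrate and burns fatty acids in mitochondria and peroxisomes. It also makes bile acids from cholesterol, and transporters on hepatocytes and bile duct cells return these acids to circulation. Nuclear receptors that sense fatty acids, sterols and bile acids set much of this programme. Whole liver is mostly hepatocytes by RNA, with stellate cells, bile duct cells, endothelium and macrophages. Pancreatic acinar cells, which make digestive enzymes, are not liver cells. In such bulk RNA, fewer cells of a type and less RNA per cell cannot be told apart.

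The 8 libraries held 35.7 to 45.6 M counts each, and levels are given as CPM, a gene's counts relative to the library total scaled by a TMM factor. Alb, which encodes albumin, had 67340 to 80570 CPM on 44% fat and 77920 to 88010 CPM on 10% fat, and Xist, the RNA of the inactive X chromosome, had 798 to 1185 CPM across the 8. A pair of checks on single libraries bears on every result. Cpa1, a carboxypeptidase made by pancreatic acinar cells, had 82.0, 41.0, 0.0249 and 12.1 CPM in replicates 1 to 4 on 44% fat, against 0, 0, 0 and 0.284 CPM on 10% fat. A count of 0 allows up to 0.0606 to 0.0785 CPM in these libraries, taking 3 counts as the limit, which covers counting error only. The other 7 acinar genes tested, of 27 listed, were high in the same libraries, and the list summed to 627, 370.5, 4.28 and 104 CPM on 44% fat, against 2.51 to 7.76 CPM on 10% fat. In replicate 3 on 44% fat the acinar genes Ctrb1, Pnlip and Amy2a5 were at 0. Of 10 islet markers listed only 1 was found among the deposited genes, and it did not pass the expression filter. Islet transcripts could thus hardly be checked. The amylase genes are near-identical copies, so counts may be split among them.

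Col1a1, a chain of type I collagen made by stellate cells and fibroblasts, had 81.6, 7.96, 8.52 and 6.42 CPM on 44% fat, against 9.43, 5.94, 5.70 and 7.64 CPM on 10% fat. The library with high Col1a1, replicate 1 on 44% fat, was also the one with the most Cpa1. It stood apart from the other 7 along the first principal component, which held 35.6% of the variance, at -89.8 against 8 to 20.4. It had the highest level of the 8 libraries in 4151 of 16650 genes, or 24.9%. Its proliferation marker Mki67 was at 37.3 CPM, against 2.62 to 4.28 CPM in the other 7, and Mup20, a major urinary protein of male liver, was at 862 CPM, against 37.0 to 83.8 CPM. The list of male-biased liver genes, which holds Mup20, went the other way, with a sum of 3342 CPM there and 6764 to 10210 CPM in the other 7.

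**Figure D1:**
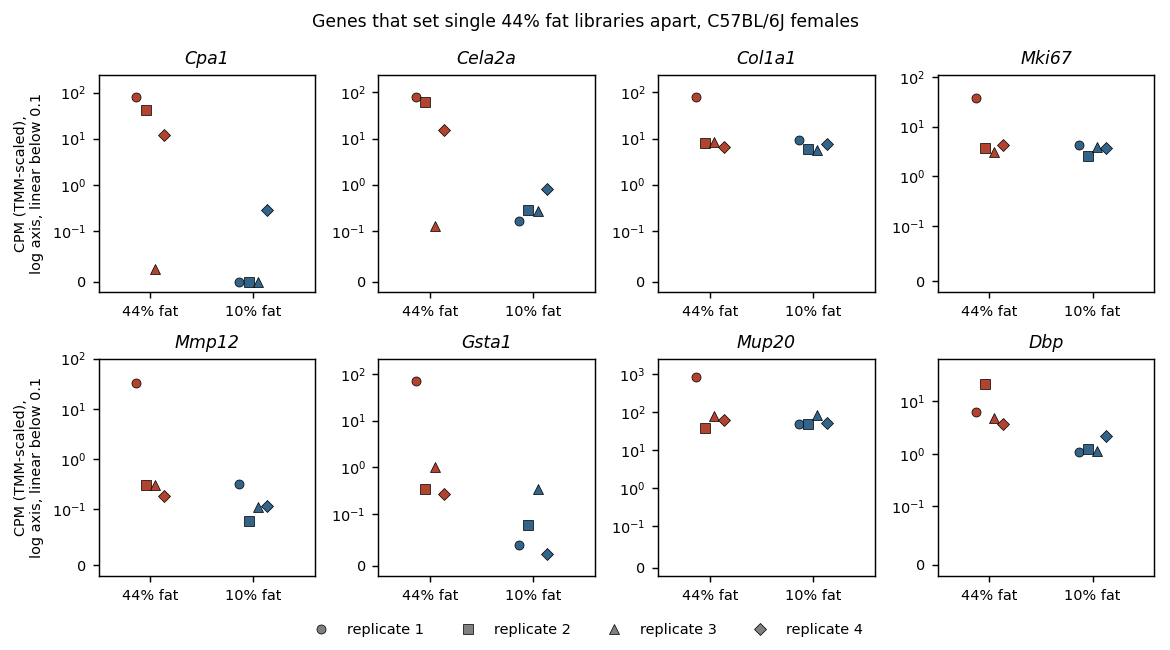
TMM-scaled CPM of 8 genes in each C57BL/6J female library (log axis, linear below 0.1; red, 44% fat; blue, 10% fat; marker shape, replicate number, which pairs nothing across diets). Replicates 1, 2 and 4 on 44% fat carry Cpa1 at 82.0, 41.0 and 12.1 CPM, replicate 1 alone carries high Col1a1, Mki67, Mmp12, Gsta1 and Mup20, and Dbp is higher in all 4 libraries on 44% fat.

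With all libraries, 17 genes passed an adjusted p of 0.05 between 44% and 10% fat, 16 of them higher on 44% fat (0.0961%) and 1 lower (0.00601%), in all 0.102% of the 16650 genes tested (edgeR quasi-likelihood test, Benjamini-Hochberg adjustment). At an unadjusted p of 0.05, 1649 genes passed, or 9.9%, and the median log2 fold change of all genes was 0.019. The 4 and 4 values did not overlap in 11 of the 17, where 3.54% of all genes tested had no overlap. After the 5 libraries of the series with Cpa1 of at least 20 CPM were left out, which took replicates 1 and 2 on 44% fat and with them the library with high Col1a1, 8 of the 17 were still called, all higher on 44% fat: Aqp4, Agxt2, Slc10a2, Them7, Aldh1a1, Ces2c, Slc15a5 and Rhbg. The 5 libraries left out are called the high-Cpa1 libraries below. The fit without them was not free of acinar transcripts, since it kept replicate 4, with Cpa1 at 12.1 CPM, beside replicate 3 on 44% fat. The acinar list had a fitted median log2 fold change of 5.67 in it, a value that depends on the prior count, and none of its 8 genes passed. With only the library with high Col1a1 left out, 11 of the 17 were called, among 15 genes in that fit (0.0903%). The number of genes called was 15, 95, 53 and 116 when replicates 1 to 4 on 44% fat were left out in turn, and 7, 11, 9 and 11 for those on 10% fat, and DESeq2 called 126.

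Slc10a2, at chr8:5083219-5105351 on the minus strand (GRCm38), encodes the sodium-dependent transporter that takes up bile acids in ileum and bile duct cells. It had 66.6, 12.3, 25.4 and 7.48 CPM in the 4 libraries on 44% fat, against 3.33, 5.68, 4.36 and 5.27 CPM on 10% fat. Each library on 44% fat lay above all 4 on 10% fat, and replicate 1 was far above the others. The log2 fold change was 2.59 (SE 0.388, adjusted p = 0.000495), and 1.82 without the high-Cpa1 libraries (adjusted p = 0.0165). Markers of bile duct cells, the cholangiocyte list, lay 0.988 above the 10% fat mean in replicate 1 on a mean log2 scale and 0.011 to 0.085 above it in replicates 2 to 4 on 44% fat, and their part in the Slc10a2 result was not tested. In the rest of the bile acid list no other of the 22 members passed. Cyp39a1, an oxysterol hydroxylase, had 36.1 to 41.6 CPM on 44% fat and 47.3 to 67.2 CPM on 10% fat without overlap (log2 fold change -0.60, adjusted p = 0.185), and Cyp7a1, the rate-limiting enzyme of bile acid synthesis, had 15.2 to 74.9 CPM on 44% fat and 10.2 to 67.0 CPM on 10% fat.

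Agxt2, at chr15:10358532-10410153 on the plus strand, encodes a mitochondrial aminotransferase that degrades dimethylarginines and beta-aminoisobutyrate. It had 111, 89.8, 113 and 95.2 CPM on 44% fat, against 59.6, 58.3, 61.0 and 71.5 CPM on 10% fat. The groups did not overlap, and replicate 2 was the lowest on 44% fat. The log2 fold change was 0.71 (SE 0.106, adjusted p = 0.000452) with all libraries and 0.73 (adjusted p = 0.0033) without the high-Cpa1 ones.

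Aldh1a1, at chr19:20601961-20643462 on the plus strand, encodes a dehydrogenase that makes retinoic acid from retinaldehyde. Its levels were 537, 589, 951 and 513 CPM on 44% fat and 282, 348, 348 and 321 CPM on 10% fat. Replicate 3, the library with almost no Cpa1, was the highest of the 8. The log2 fold change was 0.99 (SE 0.182, adjusted p = 0.0061), and 1.17 without the high-Cpa1 libraries (adjusted p = 0.00842). Ces2c, at chr8:104847068-104854483 on the plus strand, is a member of the carboxylesterase 2 family, enzymes that hydrolyse esters of drugs and of acylglycerols. It had 17.5, 14.1, 18.0 and 18.1 CPM on 44% fat, against 4.85, 8.08, 6.86 and 8.06 CPM on 10% fat, with a log2 fold change of 1.28 (SE 0.246, adjusted p = 0.0112) and 1.37 without the high-Cpa1 libraries (adjusted p = 0.0236). The groups did not overlap. Ces2c has close paralogs, so reads may be split among them.

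Them7, at chr2:105224320-105379796 on the plus strand, had 8.45, 9.81, 13.5 and 11.8 CPM on 44% fat, against 7.15, 4.995, 6.69 and 5.51 CPM on 10% fat. Replicate 1 was the lowest of the 44% fat libraries, and the groups did not overlap. The log2 fold change was 0.84 (SE 0.149, adjusted p = 0.00436), and 1.05 without the high-Cpa1 libraries (adjusted p = 0.00106).

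Aqp4, a water channel best known from astrocytes, was low in these livers, at 6.38, 2.23, 2.93 and 3.44 CPM on 44% fat and 0.363, 0.654, 0.484 and 0.355 CPM on 10% fat. It falls below the expression level asked of named genes and was named after its values were seen, as were Slc15a5, Fhit, Fam83a, Mmp12, Gsta1 and Ubd. Its log2 fold change of 3.02 was the largest of the 8 (SE 0.395, adjusted p = 0.000452), and no values overlapped. Without the high-Cpa1 libraries it was 2.79 (adjusted p = 0.00125). Slc15a5, a member of a family of peptide and histidine transporters, was lower still, at 0.0962, 0.450, 0.671 and 0.968 CPM on 44% fat and 0.202, 0.0262, 0.0440 and 0.118 CPM on 10% fat. Here replicate 1 on 44% fat lay within the 10% fat range. In replicates 2 and 3 on 10% fat Slc15a5 was under the level of 3 counts, and the log2 fold change, which rests on few counts, was 2.40 with all libraries (SE 0.495, adjusted p = 0.0253) and 2.98 without the high-Cpa1 ones (adjusted p = 7.04e-05). Rhbg, an ammonium transporter found in liver and kidney, had 3.58, 8.18, 7.50 and 6.73 CPM on 44% fat, against 3.90, 3.35, 2.86 and 3.85 CPM on 10% fat. Replicate 1 again lay within the 10% fat range, and the other 3 lay above it (log2 fold change 0.90, SE 0.197, adjusted p = 0.0496, and 1.02 with adjusted p = 0.022 without the high-Cpa1 libraries).

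**Figure D2:**
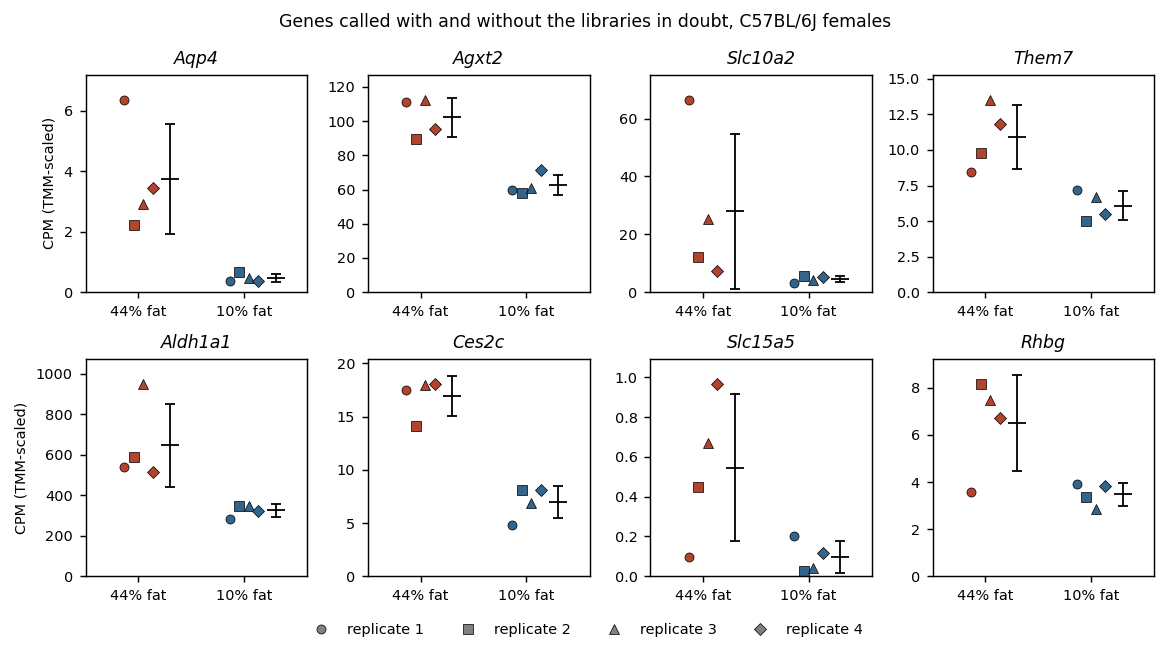
TMM-scaled CPM of the 8 genes called with and without the libraries in doubt, in each C57BL/6J female library (red, 44% fat; blue, 10% fat; marker shape, replicate number; horizontal tick and bar, mean ± SD of 4 libraries). Groups do not overlap for Aqp4, Agxt2, Slc10a2, Them7, Aldh1a1 and Ces2c, while replicate 1 on 44% fat falls within the 10% fat range for Slc15a5 and Rhbg.

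These 8 calls differ in how far they rest on single libraries. Aqp4, Agxt2, Slc10a2 and Them7 were called whichever of the 8 libraries was left out, with a highest adjusted p of 0.00803, 0.00803, 0.00803 and 0.045. Aldh1a1 missed the threshold without replicate 1 on 10% fat (adjusted p = 0.0772), and Ces2c without replicate 1 or replicate 3 on 10% fat (highest adjusted p = 0.115). Slc15a5 and Rhbg missed it in 4 and in 6 of the 8 such fits (highest adjusted p 0.145 and 0.174). Among the genes lost without the high-Cpa1 libraries, Mmd2 and Abca2 were called in all 8 such fits (highest adjusted p 0.0333 and 0.0397). Fhit was called in 6 of them, so this check does not set the 8 genes apart from all those lost. With replicates 1, 2 and 4 on 44% fat all left out, so that replicate 3 stood alone for 44% fat and was assumed to vary like the libraries of the other groups, 5 of the 17 were called, among 9 genes (0.0516%): Aqp4, Agxt2, Slc10a2, Them7 and Aldh1a1, with adjusted p from 0.000147 to 0.0435. All 17 kept the sign of their change there, but the libraries of this fit were also in the first, so this is no independent check. In a fit to the 8 libraries alone, with 6 residual degrees of freedom against 35, no gene passed, while 876 did at an unadjusted p of 0.05.

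The promoters of 6 of the 8 genes were matched in the RefSeq promoter table (GRCm38.p6), and the 250 bases before the start are shown for the 4 of them with the smallest p, Agxt2, Slc10a2, Them7 and Aldh1a1, to set their sequence beside their shared rise. They lie at chr15:10358283-10358532 (plus), chr8:5105288-5105537 (minus), chr2:105224092-105224341 (plus) and chr19:20601718-20601967 (plus), each written 5′ to 3′ on the strand of its gene. The start meant here is the RefSeq start. It differs from the deposited gene start by 1, 64, 22 and 7 bases in this order, so each window runs into the gene span given above. Capitals mark AGGTCA, the core hexamer of nuclear receptor sites, or GTTAAT, the core hexamer of HNF1 sites, on either strand (TGACCT and ATTAAC on the other), and no marked matches overlapped.
Agxt2: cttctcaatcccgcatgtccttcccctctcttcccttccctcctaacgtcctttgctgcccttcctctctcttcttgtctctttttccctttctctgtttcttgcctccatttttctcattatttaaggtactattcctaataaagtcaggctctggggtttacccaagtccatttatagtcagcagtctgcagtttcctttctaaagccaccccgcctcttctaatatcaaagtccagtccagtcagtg
Slc10a2: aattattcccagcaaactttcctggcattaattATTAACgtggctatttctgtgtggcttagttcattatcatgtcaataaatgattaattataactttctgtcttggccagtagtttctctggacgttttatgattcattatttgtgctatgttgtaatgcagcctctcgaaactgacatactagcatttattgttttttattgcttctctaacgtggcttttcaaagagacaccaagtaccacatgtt
Them7: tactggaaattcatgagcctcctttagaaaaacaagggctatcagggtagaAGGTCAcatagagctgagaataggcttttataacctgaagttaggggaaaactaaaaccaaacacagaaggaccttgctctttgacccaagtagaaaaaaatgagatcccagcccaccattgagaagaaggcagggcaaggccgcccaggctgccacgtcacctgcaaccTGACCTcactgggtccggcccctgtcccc
Aldh1a1: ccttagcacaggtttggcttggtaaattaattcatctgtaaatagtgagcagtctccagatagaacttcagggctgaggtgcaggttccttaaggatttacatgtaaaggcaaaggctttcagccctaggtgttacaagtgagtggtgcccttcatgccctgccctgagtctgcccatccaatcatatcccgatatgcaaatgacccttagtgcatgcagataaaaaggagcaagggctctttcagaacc
Them7 held the nuclear receptor hexamer 199 and 29 bases before its RefSeq start. It was the 1 of the 6 matched genes with any, where 14% of the 32817 promoters in the table held one. Slc10a2 held the HNF1 hexamer 217 bases before its RefSeq start, again 1 of 6, where 6.44% of promoters did. The 4 sequences thus share neither motif in these windows.

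The other 9 genes called with all libraries did not pass without the high-Cpa1 ones, nor when replicates 1, 2 and 4 on 44% fat were left out. In Gsta1, Mmp12 and Ubd the high values came from replicate 1. Gsta1, a glutathione transferase, had 71.3, 0.350, 0.994 and 0.270 CPM on 44% fat, against 0.0404, 0.0785, 0.352 and 0.0236 CPM on 10% fat. Mmp12, the macrophage elastase, had 33.4 CPM in replicate 1 and 0.180 to 0.300 CPM in the other libraries on 44% fat, against 0.0785 to 0.323 CPM on 10% fat. Ubd, a ubiquitin-like protein, had 5.68 CPM there and 0.0751 to 0.248 CPM in the others on 44% fat, against 0.0202 to 0.142 CPM on 10% fat. Fam83a was also highest there, at 7.29 CPM against 0.398 to 1.15 CPM in the other libraries on 44% fat and 0.141 to 0.288 CPM on 10% fat, though these groups did not overlap. Without the library with high Col1a1 the adjusted p of Gsta1, Mmp12, Ubd and Fam83a were 0.828, 0.953, 0.79 and 0.348. Gsta1 shares near-identical sequence with Gsta2, so its counts may hold reads of that gene.

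Mmd2, Fhit and Abca2 differed without overlap between the groups, and passed without the library with high Col1a1. Mmd2 had 24.1, 7.33, 11.0 and 7.59 CPM on 44% fat, against 2.71, 4.53, 2.46 and 3.43 CPM on 10% fat (log2 fold change 1.94, SE 0.319, adjusted p = 0.0021). Its adjusted p was 0.0551 without the high-Cpa1 libraries, at a log2 fold change of 1.504. Fhit, a hydrolase of diadenosine nucleotides, had 2.00, 1.55, 2.04 and 1.49 CPM on 44% fat and 0.545, 0.628, 0.792 and 1.09 CPM on 10% fat. Its log2 fold change of 1.21 was 1.20 without the high-Cpa1 libraries, where the adjusted p was 0.0726. Abca2, a lipid transporter of lysosomes and the 1 gene lower on 44% fat, had 58.3, 78.7, 83.1 and 88.3 CPM on 44% fat, against 114, 102, 130.4 and 126 CPM on 10% fat (log2 fold change -0.62, SE 0.109, adjusted p = 0.00436, and -0.47 with adjusted p = 0.149 without the high-Cpa1 libraries). Tstd1 and Ugdh, the enzyme that makes UDP-glucuronate, were highest in replicate 1 at 6.57 and 223 CPM. Their log2 fold changes of 0.97 and 0.89 were 0.62 and 0.59 without the high-Cpa1 libraries (adjusted p = 0.575 and 0.359).

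Leaving these libraries out also brought 8 genes past the threshold that were not called with all, among 16 called of 16862 tested (0.0949%), 14 higher (0.083%) and 2 lower (0.0119%). All 8 had the same sign with all libraries, which include those of this fit, so this is no independent check. Except for Ugt3a1 and Elovl3 the 8 were named after their values were seen. Elovl3, an elongase of very long fatty acids, had 0.361, 4.53, 9.12 and 13.8 CPM on 44% fat, against 1.31, 1.36, 3.45 and 2.06 CPM on 10% fat. Replicate 1 was the lowest of the 8 and the other 3 were the highest. Ugt3a1, a glycosyltransferase, had 79.1, 107, 127 and 109 CPM on 44% fat and 67.5, 71.3, 88.9 and 84.1 CPM on 10% fat (adjusted p = 0.0548 with all libraries, 0.00582 without). Mgst1, a microsomal glutathione transferase, had 1193, 1670, 1787 and 1583 CPM on 44% fat and 1149, 1057, 1252 and 1213 CPM on 10% fat. Sort1, a sorting receptor that binds apolipoprotein B, and Mpzl1 were the 2 that were lower, with log2 fold changes of -0.92 and -1.30 without the high-Cpa1 libraries. Sema5b, Rarres1 and Dusp14 were the others, with log2 fold changes of 2.62, 1.22 and 2.77. The value of Dusp14 rests on few counts. This gene had 0.168, 0.0250, 0.845 and 0.360 CPM on 44% fat and 0.121, 0.0262, 0.110 and 0.0709 CPM on 10% fat.

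**Figure D3:**
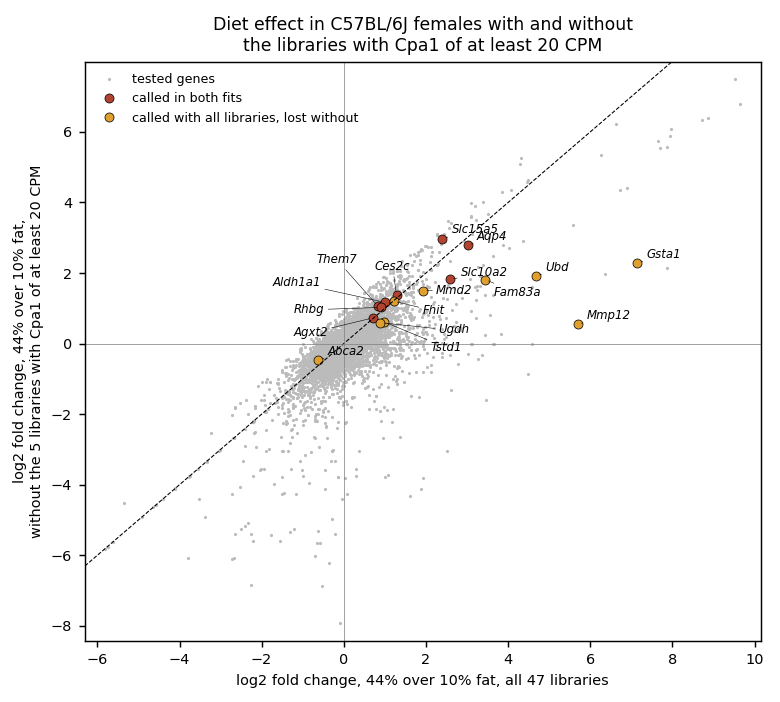
Log2 fold change of 44% over 10% fat in C57BL/6J females for each gene tested in both fits, with all 47 libraries (x axis) and after leaving out 5 libraries with Cpa1 at or above 20 CPM (y axis); the dashed line marks equal values, red points the 8 genes called in both and orange points the 9 lost. Slc10a2 lies below the line, at 2.59 and 1.82, and Slc15a5 above it, at 2.40 and 2.98, while Gsta1, Mmp12, Ubd and Fam83a lie well below it.

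Across 22 pathway lists, called genes were members of only the bile acid list (Slc10a2) and the glutathione and antioxidant list (Gsta1 and Ugdh). With all libraries, none of the 24 genes of cholesterol synthesis, 22 of fatty acid synthesis, 18 of lipid droplets, 17 of fatty acid uptake or 34 of fatty acid oxidation passed. Of all genes tested only 0.102% passed, so lists of this size may hold none at that share. Among lipid droplet genes, Fitm1, a protein of droplet formation, had 2.29, 3.33, 4.001 and 5.404 CPM on 44% fat and 1.37, 1.33, 2.62 and 1.89 CPM on 10% fat (log2 fold change 1.06, adjusted p = 0.0931). Fitm1 passed without the library with high Col1a1 (log2 fold change 1.23, adjusted p = 0.0481). It did not pass without the high-Cpa1 libraries (1.38, adjusted p = 0.0588). Cidec, a droplet fusion protein, had 18.3, 0.576, 0.895 and 2.75 CPM on 44% fat and 0.445 to 0.757 CPM on 10% fat (adjusted p = 0.0931), and replicate 1 was far above the rest. Cidea stayed at or under 0.11 CPM in all 8 libraries. Scd1, the stearoyl-CoA desaturase, had 18910, 14080, 23470 and 21500 CPM on 44% fat and 11200, 19680, 9847 and 10170 CPM on 10% fat (log2 fold change 0.61, adjusted p = 0.763).

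The fatty acid synthesis list had 0.228 as its median log2 fold change, with 18 of 22 members above 0, against 0.019 over all genes. Thrsp, a lipogenic regulator, had 20.5, 302, 279 and 175 CPM on 44% fat and 78.4 to 136 CPM on 10% fat, with replicate 1 below and the other 3 above the 10% fat range (adjusted p = 0.621). Acaa1b, a thiolase of peroxisomal oxidation, had 1165 to 1440 CPM on 44% fat and 572 to 839 CPM on 10% fat without overlap (log2 fold change 0.83, SE 0.28, adjusted p = 0.24). Over all genes tested, 54.1% were above 0 and 9.9% had an unadjusted p under 0.05. All 20 respiratory chain genes were above 0, by a median of 0.129, and 6 of them had an unadjusted p under 0.05. In the type I interferon list 21 of 22 were above 0, by a median of 0.321 (0.182 without the library with high Col1a1). Of these genes 2 had an unadjusted p under 0.05. By library the list overlapped, at 0.191 to 0.531 on 44% fat and -0.473 to 0.461 on 10% fat (mean log2 difference from the 10% fat mean). In the urea cycle and amino acid list, 5 of 22 had an unadjusted p under 0.05 (9.9% over all genes), all higher on 44% fat, among them the aminotransferase Gpt2 (226 to 348 CPM on 44% fat, 187 to 220 CPM on 10% fat) and the tryptophan dioxygenase Tdo2 (601 to 708 CPM on 44% fat, 391 to 564 CPM on 10% fat). Their adjusted p were 0.151 and 0.214.

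The medians of the cholesterol synthesis and lipoprotein secretion lists were -0.09 and -0.127, with 6 of 24 and 4 of 16 members above 0, and were 0.117 and -0.044 without the library with high Col1a1. In the acute phase list 4 of 22 members had an unadjusted p under 0.05 (9.9% over all genes) and were lower, with complement C3 at 10530 to 11540 CPM on 44% fat and 12490 to 14470 CPM on 10% fat (log2 fold change -0.30, adjusted p = 0.208), against 1 that was higher. Lepr, the leptin receptor, had 37.0, 43.4, 30.0 and 44.6 CPM on 44% fat, against 78.3, 128, 92.7 and 100.5 CPM on 10% fat. The groups did not overlap and the log2 fold change was -1.37, but with an SE of 0.397 in the shared fit it did not pass (adjusted p = 0.151). In C57BL/6J males the log2 fold change of Lepr was -1.53 (adjusted p = 0.146).

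Proliferation, matrix and lipid-associated macrophage genes were high in replicate 1. Of 22 cell cycle genes, 15 had an unadjusted p under 0.05 (9.9% over all genes) and the median log2 fold change was 1.59, and without the library with high Col1a1 this median was 0.131. The collagen and stellate cell list had 15 of 23 at an unadjusted p under 0.05 and a median of 0.584, which became 0.004. The list of lipid-associated macrophage and monocyte genes had 9 of 10 at an unadjusted p under 0.05, with Mmp12 the 1 that passed, and a median of 1.72, which became 0.076. On the mean log2 scale, replicate 1 lay 2.75, 1.66 and 3.49 above the 10% fat mean for these 3 lists, and replicates 2 to 4 lay between -0.06 and 0.399. The Kupffer cell and macrophage list was not high in replicate 1, at 0.062 against -0.238 to 0.109 in the libraries on 10% fat. The xenobiotic cytochrome P450 list lay at -1.60 in replicate 1 and the female-biased liver list at -2.74, while the other libraries on 44% fat lay at -0.018 to 0.157 and -0.657 to 0.204. The male-biased liver list lay at -0.25 in replicate 1, and at 0.326 to 0.625 in the other libraries on 44% fat. Acta2, an actin of activated stellate cells, was the collagen list's 1 gene without overlap, at 6.26, 2.88, 3.21 and 3.13 CPM on 44% fat against 1.68 to 2.48 CPM on 10% fat (adjusted p = 0.123). Over all genes tested, 1.91% had no overlap in this direction, so 1 of 23 is near that share.

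**Figure D4:**
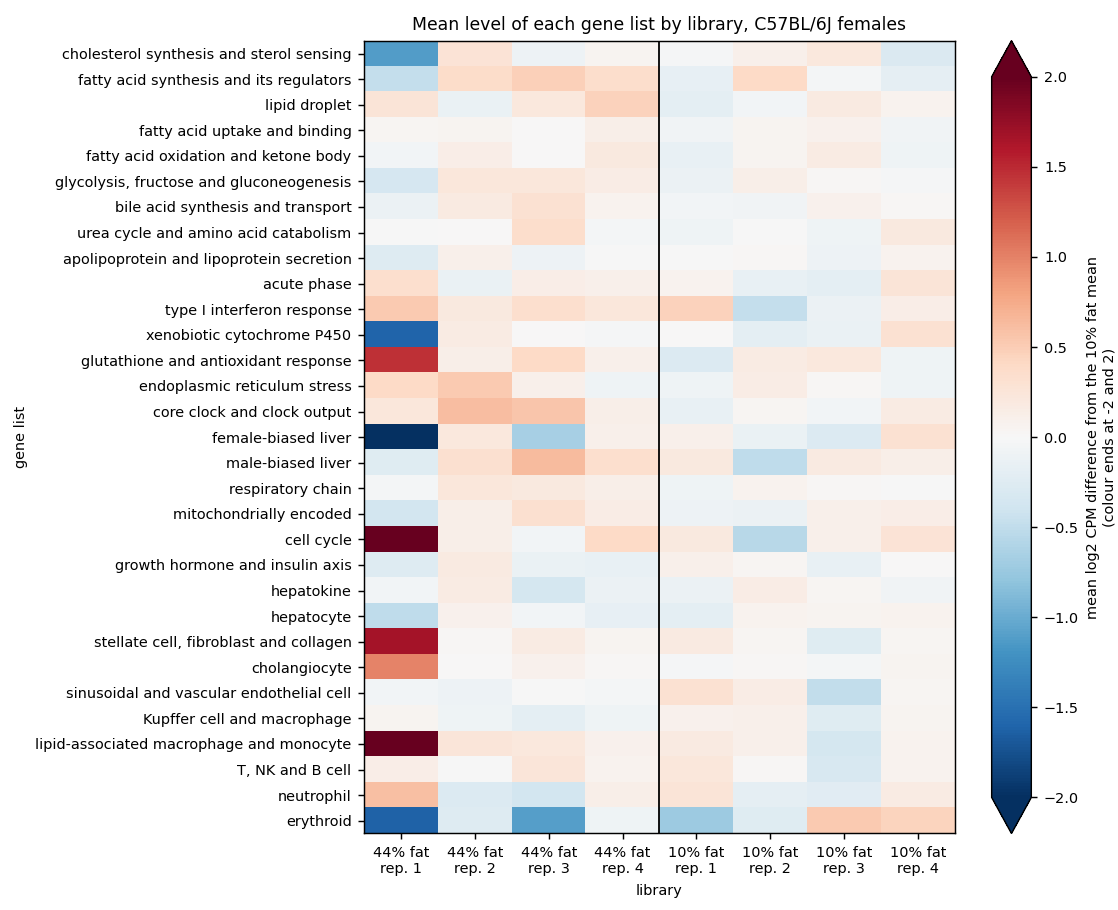
Mean log2 CPM difference of each gene list from its 10% fat mean in the 8 C57BL/6J female libraries (columns, 44% fat left of the line; rows, gene lists; red above and blue below, with colours ending at -2 and 2). Replicate 1 on 44% fat is set apart in cell cycle (2.75), lipid-associated macrophage (3.49), collagen (1.66) and female-biased genes (-2.74), and the other 3 libraries on 44% fat lie between -0.657 and 0.399 in these 4 lists.

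Clock genes were examined because their levels follow the time of collection. Dbp, a transcription factor with a strong daily rhythm in liver, had 6.18, 21.7, 4.82 and 3.62 CPM on 44% fat, against 1.07, 1.23, 1.122 and 2.22 CPM on 10% fat. Per2 and Per3, repressors of the clock, and Nr1d1, which encodes REV-ERB alpha and like Per3 was named after its values were seen, were likewise higher in each library on 44% fat than in any on 10% fat, so that 4 of the 20 clock genes did not overlap in this direction, where 1.91% of all genes did. None passed (adjusted p of Dbp 0.459, SE 1.22), and the labels used here give no time of day for tissue collection. A score of clock state per library, Dbp and Ciart less Arntl and Npas2, lay at -1.91 to -0.111 on 44% fat and at -2.56 to -1.69 on 10% fat. With this score as a covariate 14 of the 17 genes were called, among 16 (0.0961%), and of the 8 above only Rhbg was lost (adjusted p = 0.0615).

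Identifiers in the titles form 3 runs of consecutive numbers, possible batches, and each run holds C57BL/6J females on both diets. Runs 1 and 3 hold 1 such library per diet and run 2 holds 2. Fold changes within runs 1 and 3 thus rest on 1 library against 1. With the run as a covariate 12 of the 17 were called, Rhbg again being the 1 lost of the 8 (adjusted p = 0.0701). Within runs 1, 2 and 3, the log2 fold change of Agxt2 was 0.88, 0.76 and 0.41, that of Slc10a2 4.30, 1.91 and 0.50, that of Aldh1a1 0.91, 1.14 and 0.68, and that of Aqp4 4.10, 2.18 and 3.27. Them7 had 0.22, 1.00 and 1.10 and Ces2c 1.83, 1.10 and 1.17. In run 1, whose 44% fat library is replicate 1, Slc15a5 and Rhbg were lower on 44% fat, at -1.07 and -0.14, against 3.85 and 1.34 in run 2 and 3.002 and 0.80 in run 3.

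The same diets gave the 8 genes the same sign in C57BL/6J males for 8 of 8, in NZO/HlLtJ females for 8 of 8 and in CAST/EiJ females for 7 of 8. The share of all genes with the same sign was not counted, and some of these estimates were near 0. Ces2c had 0.05 (SE 0.234) in males and 0.07 (SE 0.284) in CAST/EiJ females, where Agxt2 had 0.082 (SE 0.106). Aqp4 was at 0 in all 15 CAST/EiJ libraries, which allows up to 0.0674 to 0.0966 CPM. In males only Them7 passed, at 9.42 to 19.5 CPM on 44% fat and 7.93 to 10.5 CPM on 10% fat (log2 fold change 0.78, SE 0.147, adjusted p = 0.0201), where 7 genes were called in all (0.042%). In NZO/HlLtJ females 4 of the 8 passed, where 0.486% of genes were called: Them7 (0.77, adjusted p = 0.00587), Aqp4 (1.62, adjusted p = 0.0164), Ces2c (1.01, adjusted p = 0.0405) and Slc15a5 (1.73, adjusted p = 0.0442). In CAST/EiJ females, where 0.198% of genes were called, none of the 8 passed.

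Levels in the 2 sexes of C57BL/6J are set side by side here, and were not tested against each other. Ces2c had 14.1 to 18.1 CPM on 44% fat and 4.85 to 8.08 CPM on 10% fat in females, while in males it had 35.3 to 55.2 CPM on 44% fat and 31.4 to 52.7 CPM on 10% fat, a log2 fold change of 0.05 (SE 0.234). Slc10a2 in males had 41.8 to 56.8 CPM on 44% fat and 28.9 to 51.4 CPM on 10% fat, and Aldh1a1 had 749 to 1261 CPM and 637 to 895 CPM on the same diets. Tested directly, the diet effect in females minus that in males was 2.19 for Slc10a2 (SE 0.519, adjusted p = 0.16), 2.03 for Aqp4 (SE 0.506, adjusted p = 0.322), 1.23 for Ces2c (SE 0.338, adjusted p = 0.43) and 0.60 for Aldh1a1 (SE 0.255, adjusted p = 0.83), and none of these passed. Slc15a5, at 3.604 to 6.16 CPM on 44% fat and 1.10 to 4.34 CPM on 10% fat in males, had a difference of 1.70 that did not pass with all libraries (SE 0.598, adjusted p = 0.83) and one of 2.75 that did without the high-Cpa1 ones (adjusted p = 0.0239).

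**Figure D5:**
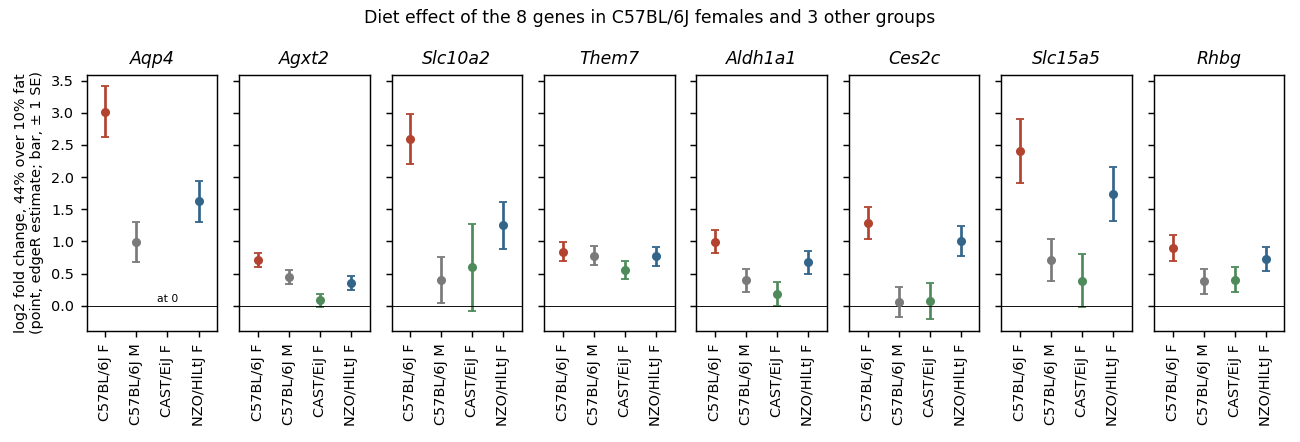
Log2 fold change of 44% over 10% fat for the 8 genes (point, edgeR estimate; bar, ± 1 SE) in C57BL/6J females, C57BL/6J males, CAST/EiJ females and NZO/HlLtJ females. The estimates are above 0 wherever shown, Aqp4 is at 0 in CAST/EiJ, and Them7 has 0.84 in C57BL/6J females, 0.78 in C57BL/6J males, 0.55 in CAST/EiJ females and 0.77 in NZO/HlLtJ females.

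Across all genes, the diet effect differed between C57BL/6J females and males in 14 of 16650 genes (0.0841%), all with the higher value in females. These were Cpa1, Ctrb1, Ctrl, Cela2a, Pnlip, Pnliprp1, Amy2a1 to Amy2a5, Klk1, Dmbt1 and Tff2, which are digestive enzymes of the pancreas and secreted proteins of exocrine and gut tissue. In males the acinar genes were high on the other diet: Cpa1 was at 0 in all 4 male libraries on 44% fat, and had 0, 41.4, 74.1 and 0 CPM in the 4 on 10% fat. Without the high-Cpa1 libraries, which in males are replicates 2 and 3 on 10% fat, 13 of the 14 were tested and each had an adjusted p of 1, while Tff2 was not tested. Replicate 4 on 44% fat, with acinar transcripts, was still in that fit. The libraries left out were chosen by Cpa1 itself, so the loss of these acinar calls largely follows from that choice. Between C57BL/6J and CAST/EiJ females only Tstd1 differed in its diet effect (0.00601% of genes), with a log2 fold change of 0.97 in C57BL/6J and -0.83 in CAST/EiJ females. The difference was 1.80 (SE 0.293, adjusted p = 0.0046), and its adjusted p was 0.0682 without the high-Cpa1 libraries. Between C57BL/6J and NZO/HlLtJ females edgeR called no gene, with 997 at an unadjusted p of 0.05 (5.99%), and DESeq2 and limma called 2 each.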

How the data were processed

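RNA was polyadenylated RNA from mouse liver, sequenced as paired-end reads to a total of 21.6 to 47.8 M counts in 47 libraries. The authors deposited expected counts per gene, which need not be whole (20.3% of values differ from a whole number by more than 1e-06), and variance-stabilized values on a log2 scale. Per the submitters' processing notes, GRCm38 and DESeq2 were used; for the aligner, the counting tool and strand, the labels name nothing (not given in the sources used here).

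Expected counts were rounded and tested with edgeR 4.0.16 in R 4.3.3 by the quasi-likelihood test, with TMM scaling, a low-count filter over the 12 groups that kept 16650 of 20320 genes, and Benjamini-Hochberg adjustment over all of these at 0.05. All 47 libraries entered the fit with a mean for each group of strain, sex and diet, leaving 35 residual degrees of freedom. SE values were derived from the F statistic. DESeq2 1.42.0 and limma 3.58.1, the second on the deposited log2 values, were alternatives, and the fit was tested on simulated data. Replicates were numbered in accession order and pair nothing across groups; no 2 libraries agreed within counting noise, with the smallest chi-square per gene at 27.5.

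Libraries in doubt were those with Cpa1 of at least 20 CPM and the C57BL/6J female library with the highest Col1a1. Genes named have an average log2 CPM of at least 1 and a unique symbol, and are the genes called, the 3 smallest p-values of each list, the 6 smallest of each difference and a short list of liver genes; others are said to have been named after their values were seen. The comparison, gene lists, doubted libraries and named genes were chosen with earlier results of these data known. The clock covariate, the fit without replicates 1, 2 and 4 and the fit without only replicates 1 and 2 were added after seeing the data. Promoters come from RefSeq.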

Additional observations from a re-analysis of the deposited data

Results flagged for a closer look

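In the genes named here, 38 of 252 groups of 4 libraries held 1 library far from the other 3, and in 23 of the 38 it was replicate 1 on 44% fat, as the highest. Chance gives about 1 in 20 groups for independent genes, but these genes were named for their calls, small p-values or marker roles and vary together, so the count cannot be read against that rate. In that library the matrix and stellate cell genes Col1a1, Col3a1 and Acta2 were at 81.6, 197 and 6.26 CPM, the proliferation genes Mki67 and Top2a at 37.3 and 13.1 CPM, and the bile duct genes Spp1 and Sox9 at 47.8 and 8.61 CPM. The macrophage genes Cd68, Lgals3 and Mmp12 were at 19.9, 19.1 and 33.4 CPM. Other macrophage genes went the other way there. Vsig4 was at 22.9 CPM, against 23.2 to 37.2 CPM in the rest, and Timd4 at 4.21 CPM, against 7.12 to 10.2 CPM. The lipid genes Lpl, Fabp4, Cidec and Hsd17b13 were at 129, 14.1, 18.3 and 476 CPM. Krt8, a keratin, was at 417 CPM, Mup20 at 862 CPM, the stress genes Srxn1 and Trib3 at 106 and 24 CPM, and the complement gene C6 at 61.2 CPM. Gsta1, Fam83a, Ubd and Cyp2c55 were at 71.3, 7.29, 5.68 and 15.1 CPM. Clec4g, a lectin of sinusoidal endothelium, was lowest there, at 26.9 CPM.

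Elsewhere on 44% fat, replicate 2 was the highest for the clock genes Dbp and Per2, at 21.7 and 21.6 CPM, and the lowest for Ces2c, at 14.1 CPM. Replicate 3 was the highest for Fbp1 and Cyp3a13, at 1160 and 183 CPM. On 10% fat, replicate 1 was the highest for Mmp12, at 0.323 CPM. Replicate 2 was the highest for Pmvk, Lpl and Scd1, at 44.4, 18.5 and 19700 CPM. Replicate 3 was the highest for Mup20, Cd9 and Gsta1, at 83.8, 43.2 and 0.352 CPM, and replicate 4 for Dbp and Cpa1, at 2.22 and 0.284 CPM.

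The diet effect in C57BL/6J females differed from that in CAST/EiJ females for Tstd1, by 1.80 on the log2 scale. It differed from that in C57BL/6J males for Cpa1, Cela2a and Dmbt1, with fitted log2 differences of 22.037, 14.672 and 8.999 that depend on the prior count, since these genes were at or near 0 in several libraries.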

How the results depend on the processing

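Against 17 genes called for diet, DESeq2 called 126 (all 17 among them), limma on the deposited log2 values 11, female libraries alone 11, C57BL/6J libraries alone 2 (Aqp4 and Ces2c), the 8 libraries alone 0, and the fit without the 44% fat libraries with Cpa1 of at least 10 CPM 9. Within identifier runs 1, 2 and 3 it was 312, 4 and 0. Leaving out 1 library gave 7 (without 10% fat replicate 1) to 116 (without 44% fat replicate 4), with 95 and 53 without 44% fat replicates 2 and 3, and 9 to 11 without the other libraries on 10% fat. The other scalings, filters and covariates gave 12 to 19. Of the 8 genes that stood without the doubted libraries, the same procedure gave 19 with DESeq2, 1 with C57BL/6J libraries alone, 0 with the 8 libraries alone and 2 (without 44% fat replicate 3) to 6 when 1 library was left out. Rhbg and Slc15a5 reversed within run 1, at -0.143 and -1.067. The causes were not tested.

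The 14 genes with a different diet effect in females minus males became 0 with C57BL/6J libraries alone, limma, Cpa1 as a covariate, run 3, or without 44% fat replicates 1 and 2. They became 1 in run 2, without the high-Cpa1 libraries (Slc15a5, also with the highest Col1a1 left out) and without the 44% fat libraries with Cpa1 of at least 10 CPM, and 6 with the clock covariate. Leaving out 1 library gave 3 to 17. For C57BL/6J minus CAST/EiJ females, 1 became 15 with DESeq2, 19, 0 and 0 within runs, 0 with female libraries alone, 0 without the high-Cpa1 libraries, with or without the highest Col1a1 library, 0 without 44% fat replicates 1 and 2, and 1 to 5 when 1 library was left out. For C57BL/6J minus NZO/HlLtJ females, 0 became 2 with DESeq2, 2 with limma, 30 within run 1 and 1 without the 44% fat libraries with Cpa1 of at least 10 CPM. Among single genes and list medians, 3724 planned values kept their direction and side of the threshold, 177 lost the call, 58 gained one, 81 moved and 2 reversed. No paired analysis was possible because the labels give no replicate numbers; the identifier run, which is no pairing of libraries, was fitted as a covariate instead and called 12. Depth limits genes near 0, such as Slc15a5 and Ubd, where a few counts set the fold change.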
